A study of Mus musculus with 18 samples.

Results

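The 6 mouse Cyp4a genes Cyp4a10, Cyp4a14, Cyp4a12a, Cyp4a12b, Cyp4a31 and Cyp4a32 were followed in liver RNA, out of 19057 genes in the deposited table. They were taken by gene symbol, because results of these same data had already shown Cyp4a10 and Cyp4a14 to be higher in HFD than in control livers and lower in A10-FMT than in HFD livers. All 6 were in the table, and 5 of them were among the 10507 genes that reached an RPKM (reads per kilobase of transcript, scaled to the reads of the library) of 1 or more in 3 or more livers and were fitted. Cyp4a31 reached that level in too few livers and was described only by its values.

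The livers came from male ICR mice, an outbred strain, aged 10 weeks, with 3 mice in each of 6 groups. Con received a regular diet and AOS a dose of 10 mg/kg alginate oligosaccharide, a short sugar chain from seaweed. HFD received a high-fat diet, and HFD+AOS the high-fat diet with 10 mg/kg AOS. Con-FMT and A10-FMT received the high-fat diet and, by mouth, small intestine content from control donors or from donors given 10 mg/kg AOS. The donors' content was pooled within each kind of donor, so the 3 recipients of a group shared 1 source of microbiota. The diet of the AOS group and the schedule of both AOS-dosed groups were not given in the sources used here. The study's main question was male fertility under the high-fat diet after transfer of microbiota from AOS-dosed donors, with the liver as a further readout, and the Cyp4a values below describe the liver only at the RNA level.

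CYP4A enzymes are cytochrome P450 monooxygenases of the endoplasmic reticulum that add a hydroxyl group to the end (omega) carbon of fatty acids. The hydroxylated acids are oxidised to dicarboxylic acids and shortened in peroxisomes, a route that is minor in a fed liver and grows when fatty acid supply exceeds mitochondrial use. Cyp4a10 and Cyp4a14 are known as targets of PPARα, the nuclear receptor that fatty acids and fibrate drugs activate, whereas Cyp4a12a is the abundant, male-biased and androgen-dependent form of mouse liver and kidney.

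The genes lie side by side on chromosome 4 (GRCm38, GENCODE annotation) and several are nearly the same in sequence, which limits how far reads can tell them apart. The cluster runs from Cyp4a12a (chr4:115299046-115332815) through Cyp4a12b (chr4:115411624-115439034), Cyp4a14 (chr4:115486200-115496142), Cyp4a10 (chr4:115518264-115533649) and Cyp4a31 (chr4:115563649-115579015) to Cyp4a32 (chr4:115600969-115621602). Cyp4a14 is on the minus strand and the other 5 are on the plus strand. A coding stretch of 90 bases in exon 6 is shown for each gene because it holds the most differences between Cyp4a12a and Cyp4a12b of any such stretch, at 7 bases. Capitals mark bases that differ from Cyp4a10 at the aligned position.
Cyp4a10 (chr4:115524756-115524845, plus strand): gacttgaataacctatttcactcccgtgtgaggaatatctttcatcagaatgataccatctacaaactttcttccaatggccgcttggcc
Cyp4a32 (chr4:115610484-115610573, plus strand): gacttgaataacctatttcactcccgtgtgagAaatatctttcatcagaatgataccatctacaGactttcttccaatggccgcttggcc
Cyp4a31 (chr4:115570217-115570306, plus strand): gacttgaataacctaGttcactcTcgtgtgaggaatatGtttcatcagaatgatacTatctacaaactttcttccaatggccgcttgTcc
Cyp4a14 (chr4:115492115-115492204, minus strand): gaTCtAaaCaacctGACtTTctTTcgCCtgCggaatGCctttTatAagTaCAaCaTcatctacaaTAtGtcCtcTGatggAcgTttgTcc
Cyp4a12a (chr4:115326659-115326748, plus strand): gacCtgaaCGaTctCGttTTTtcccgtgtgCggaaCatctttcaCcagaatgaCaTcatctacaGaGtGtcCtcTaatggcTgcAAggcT
Cyp4a12b (chr4:115432912-115433001, plus strand): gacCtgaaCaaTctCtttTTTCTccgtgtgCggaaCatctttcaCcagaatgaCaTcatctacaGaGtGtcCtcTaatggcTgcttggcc

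In this stretch Cyp4a32 differed from Cyp4a10 at 2 bases and Cyp4a31 at 5, whereas Cyp4a12b differed at 20, Cyp4a12a at 23 and Cyp4a14 at 32. Over the whole coding sequence, Cyp4a12a and Cyp4a12b were 98.5% identical (23 of 1524 bases differed). Cyp4a10 and Cyp4a32 were 97.2% identical (43 of 1527 differed) and Cyp4a10 and Cyp4a31 96.6% (52 differed). Cyp4a14 was 75.0 to 75.9% identical to the other 5 genes. Of all 50-base stretches of the Cyp4a14 coding sequence, 9.0% matched another Cyp4a transcript with up to 2 mismatches. The same share was 97.4% for Cyp4a10, 91.1% for Cyp4a12a and for Cyp4a12b, 86.2% for Cyp4a31 and 84.0% for Cyp4a32. With exact matches only, these shares were 0.4% for Cyp4a14, 40.5% for Cyp4a10, 54.8% for Cyp4a12a and for Cyp4a12b, 31.6% for Cyp4a31 and 46.7% for Cyp4a32. Stretches of these genes outside the coding sequence were not examined. The read length was not given in the sources used here. The paper's SOAPaligner setting reports every hit of a read that matches several places, but the submitters' notes name another aligner, Bowtie. Which of them made the deposited values, and how such reads were counted, is not known. By coding sequence Cyp4a14 was therefore the member that shared least with a relative, and the split of reads within the pair Cyp4a12a and Cyp4a12b and within the trio Cyp4a10, Cyp4a31 and Cyp4a32 is uncertain. The reference genome is from another strain than ICR, and differences between the strains were not examined.

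Some features of the libraries touch the values below. In Con replicate 3, 98.0% of the 148 genes that differed by at least 1 on the log2 scale between the other Con libraries had a value between them, and a mixture of both fitted it with a median difference of 0.0665 log2. AOS replicate 3 behaved alike, at 96.5% of 142 genes and 0.083 log2, against 58.1 to 76.8% and 0.341 to 0.590 log2 in the 12 libraries of the other 4 groups. Con and AOS may thus rest on fewer than 3 independent livers, and values without these libraries are given where they matter. The deposited RPKM summed to 692303 to 806937 per library with 14512 to 14982 genes above 0, and the number of reads was not given. Liver identity was clear, since 8 of 8 hepatocyte markers were present in every group with a summed RPKM of 41793 to 67897. In whole liver, fewer cells of a type and less RNA per cell cannot be told apart.

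Cyp4a12a was by far the most abundant member in every liver. Its RPKM, which is scaled to transcript length, made up 64.4 to 93.8% of the summed RPKM of the 6 genes, with a median of 87.8%. Cyp4a32 was next in most livers, at 11.19 to 41.25 RPKM over all 18 livers. Cyp4a12b lay between 0.66 and 15.34 RPKM and Cyp4a31 between 0.03 and 1.3 RPKM. Cyp4a10 spanned 1.19 to 45.15 RPKM and Cyp4a14 0.2 to 29.57 RPKM.

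**Figure D1:**
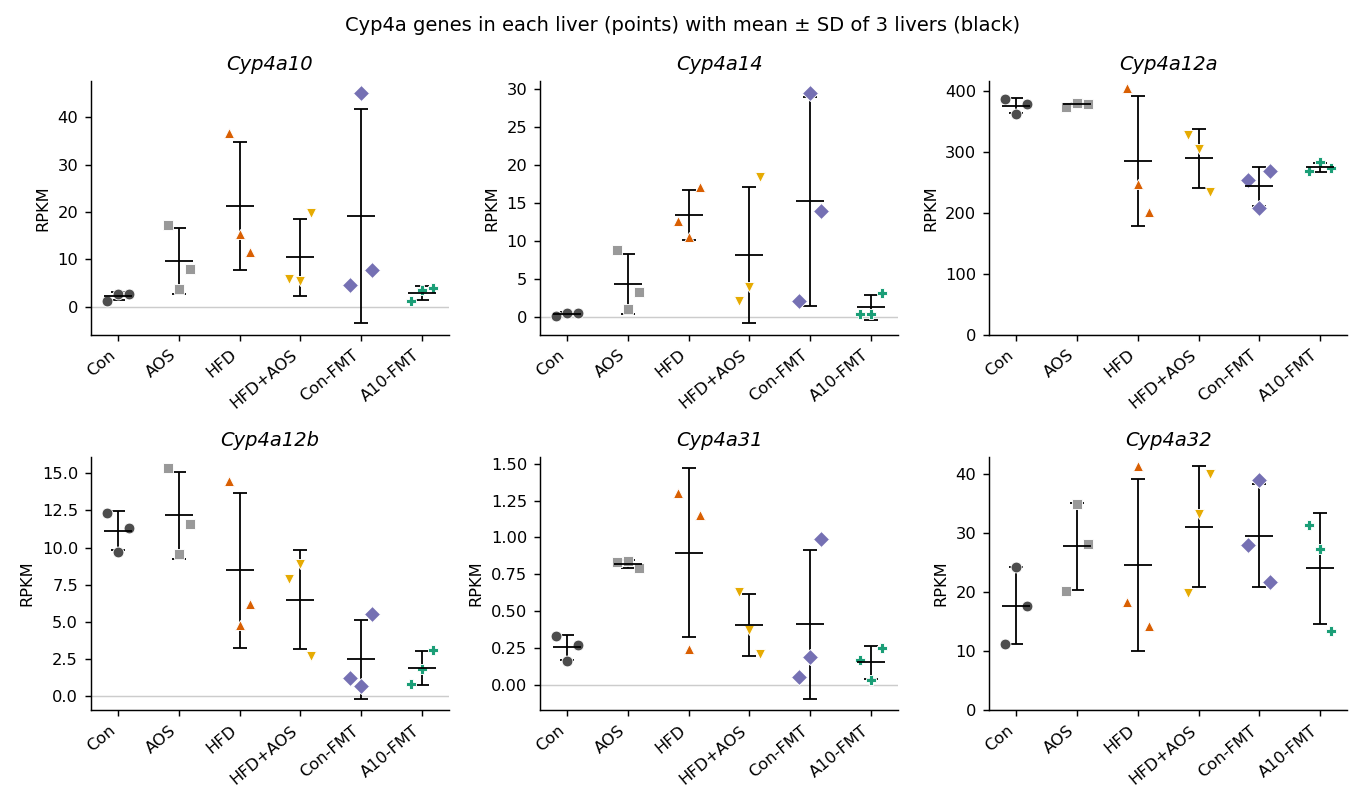
RPKM of the 6 Cyp4a genes in each liver by group (coloured points, 3 livers a group), with the group mean and SD in black and a separate linear RPKM axis for each gene. Cyp4a10 and Cyp4a14 were low in Con and A10-FMT, Cyp4a12b was low in both transplant groups, and Cyp4a32 overlapped between all groups.

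The fatty-acid-inducible members Cyp4a10 and Cyp4a14 were higher in all HFD livers than in any Con liver, and this difference is the one that chose them. Cyp4a10 was 1.29, 2.76 and 2.77 RPKM in the Con livers and 36.72, 15.42 and 11.64 RPKM in the HFD livers. Cyp4a14 was 0.2, 0.57 and 0.55 RPKM in Con and 12.69, 10.61 and 17.07 RPKM in HFD. The lowest HFD liver was thus above the highest Con liver for both genes. On the log2(RPKM + 1) scale used for all differences here, HFD exceeded Con by 2.64 (SE 0.70, n = 3 a group) for Cyp4a10 and by 3.31 (SE 0.77) for Cyp4a14. The added 1 lowers the fold of weak genes, and with 0.1 in its place the Cyp4a14 difference was 4.71. Leaving out 1 liver gave 2.18 to 2.96 and 3.14 to 3.46, and without replicate 3 of both Con and AOS the differences were 2.76 and 3.37. Of all fitted genes, 13.8% had HFD livers all above the Con livers and 0.381% passed an adjusted p under 0.05, values given only for orientation because the genes were chosen on this comparison.

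The other members did not share that pattern. Cyp4a12a was 386.68, 362.68 and 379.04 RPKM in Con and 405.55, 247.63 and 201.76 RPKM in HFD. One HFD liver thus lay above all Con livers and the others below them, and the difference of -0.46 (SE 0.19) was -0.75 without HFD replicate 1. Cyp4a12b was 12.36, 9.73 and 11.31 RPKM in Con and 14.45, 4.77 and 6.2 RPKM in HFD, a difference of -0.49 (SE 0.48). The same HFD liver, replicate 1, was the high one for Cyp4a12b. Cyp4a32 was 11.19, 24.22 and 17.68 RPKM in Con and 18.25, 41.25 and 14.22 RPKM in HFD, which overlapped widely. Cyp4a31 was 0.33, 0.16 and 0.27 RPKM in Con and 1.3, 0.24 and 1.15 RPKM in HFD.

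A10-FMT livers had Cyp4a10 and Cyp4a14 near the Con level despite the high-fat diet. Cyp4a10 was 1.19, 3.48 and 4.02 RPKM and Cyp4a14 was 0.36, 0.36 and 3.21 RPKM in the 3 A10-FMT livers. All of these lay below the lowest HFD liver, and 2 of 3 Cyp4a14 values lay within the Con range. The difference from HFD was -2.44 (SE 0.70) for Cyp4a10 and -2.84 (SE 0.77) for Cyp4a14, again the comparison that chose these genes. Cyp4a12b was lower as well, at 0.78, 1.8 and 3.09 RPKM, which did not overlap with HFD (difference -1.66, SE 0.48). Cyp4a12a (269.07, 283.66 and 273.71 RPKM) lay within the HFD range with a difference of 0.01 (SE 0.19), and Cyp4a32 (31.39, 27.25 and 13.45 RPKM) differed by 0.03 (SE 0.40). A10-FMT livers lay wholly below HFD livers for 13.4% of all fitted genes, and 6.60% were called changed. A10-FMT replicate 1 carried adipocyte RNA, with Cfd at 22.05 RPKM and Adipoq at 4.42 RPKM against at most 0.32 and 0.11 RPKM in the 15 livers outside A10-FMT. The 5 adipocyte markers summed to 0.08 to 29.4 RPKM in A10-FMT and to at most 0.47 RPKM in the other groups, with Lep and Plin1 under 1 RPKM in every liver. Leaving it out gave -2.07 for Cyp4a10, -2.57 for Cyp4a14 and -1.35 for Cyp4a12b.

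Control microbiota gave a wide spread instead of a common level. In Con-FMT, Cyp4a10 was 4.57, 45.15 and 7.78 RPKM and Cyp4a14 was 2.18, 29.57 and 13.95 RPKM. Replicate 2 held the highest value of both genes among all 18 livers, whereas replicate 1 was close to the A10-FMT livers. Against HFD the differences were -0.60 (SE 0.70) and -0.33 (SE 0.77), or -1.51 to 0.02 and -1.04 to 0.59 with 1 liver left out, with no separation of the livers for any of the 5 fitted members (10.1% of all genes were separated and 0.00952% called). A10-FMT lay below Con-FMT by 1.84 (SE 0.70) for Cyp4a10, with livers that did not overlap, and by 2.51 (SE 0.77) for Cyp4a14, with livers that did. In that comparison 11.2% of all genes lay wholly lower in A10-FMT and 1.68% were called. Without Con-FMT replicate 2, A10-FMT lay below Con-FMT by 0.93 for Cyp4a10 and by 1.80 for Cyp4a14, so the size of the first rested on 1 liver. Con-FMT replicate 3 also held the kidney RNA Kap at 29.31 RPKM, with the other 4 of 5 kidney markers under 1 RPKM in all livers. The 5 markers summed to 0.43 to 30.0 RPKM in Con-FMT and to at most 2.95 RPKM in the other groups, and the part of kidney RNA in the Cyp4a values was not tested.

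Dosing with AOS itself went with intermediate and scattered values. Cyp4a10 was 17.22, 3.72 and 8.03 RPKM in AOS and 5.99, 5.46 and 19.89 RPKM in HFD+AOS. Cyp4a14 was 8.78, 1.06 and 3.37 RPKM in AOS and 2.07, 3.99 and 18.46 RPKM in HFD+AOS. Every AOS liver was above every Con liver for both genes, and the differences were 1.53 (SE 0.70) and 1.64 (SE 0.77), or 1.03 to 2.01 and 1.07 to 2.19 with 1 liver left out, beside 19.5% of all genes whose AOS livers all lay above Con and 0.133% called. Under the other settings, which include leaving out replicate 3 of Con and AOS, they were 1.46 to 1.85 and 1.57 to 2.70. If these libraries are mixtures, the separation and the 19.5% rest on replicates 1 and 2 of each group. HFD+AOS lay 1.02 (SE 0.70) and 1.09 (SE 0.77) below HFD with overlapping livers (27.2% of all genes did not overlap and 8.75% were called), and with 1 liver left out these differences were -1.56 to -0.55 and -1.86 to -0.53. The difference HFD+AOS minus AOS less the difference HFD minus Con was -2.54 (SE 0.98) for Cyp4a10 and -2.73 (SE 1.09) for Cyp4a14, which was not tested because it holds the HFD and Con livers that chose the genes (0.504% of all genes were called).

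HFD+AOS was compared with AOS in livers on which the choice of members is not known to rest, and none of the 5 fitted members was called. Earlier results of these data were known when the members were chosen, so full independence cannot be shown. Since the diet of the AOS group was not given, this comparison cannot be taken as one of diet alone. Cyp4a10 differed by 0.09 (95% interval -1.38 to 1.57, adjusted p = 0.959, limma) and Cyp4a14 by 0.59 (-1.05 to 2.22, adjusted p = 0.716). Both intervals were wide, and without HFD+AOS replicate 3 the differences were -0.45 and -0.18. Cyp4a12a was 374.81, 381.16 and 379.12 RPKM in AOS and 328.4, 305.68 and 235.06 RPKM in HFD+AOS, so all HFD+AOS livers were lower. Its difference was -0.40 (-0.79 to 0.00, unadjusted p = 0.0488, adjusted p = 0.242, limma). With 1 liver left out it was -0.50 to -0.26. Under the other settings, which include leaving out replicate 3 of Con and AOS, it was -0.40 to -0.37. The adjusted p (limma) over all alternatives was 0.107 to 0.493. Cyp4a12b was 15.34, 9.59 and 11.56 RPKM in AOS and 7.86, 8.92 and 2.7 RPKM in HFD+AOS, also without overlap, and differed by -0.91 (-1.94 to 0.11, adjusted p = 0.304, limma). Cyp4a32 (20.24, 34.97 and 28.1 against 19.87, 33.25 and 40.04 RPKM) differed by 0.13 (-0.71 to 0.98, adjusted p = 0.888, limma). Wholly lower in HFD+AOS were thus 2 of 5 members, beside 17.1% of all genes, and called were 0 of 5, beside 5.44%.

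The other comparison of livers on which the choice is not known to rest was Con-FMT against HFD+AOS, both on the high-fat diet. None of the 5 members was called, beside 1.99% of all genes, and none had livers without overlap, beside 22.8%. Cyp4a12b was 1.24, 0.66 and 5.54 RPKM in Con-FMT, below the HFD+AOS livers in 2 of 3 mice, and the difference of -1.25 had an interval of -2.27 to -0.22 (unadjusted p = 0.0203, adjusted p = 0.192, limma). The differences were 0.42 for Cyp4a10 (-1.06 to 1.90, adjusted p = 0.796, limma) and 0.76 for Cyp4a14 (-0.88 to 2.40, adjusted p = 0.636, limma). Cyp4a12a differed by -0.24 (-0.64 to 0.15, adjusted p = 0.519, limma) and Cyp4a32 by -0.05 (-0.90 to 0.79, adjusted p = 0.959, limma).

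**Figure D2:**
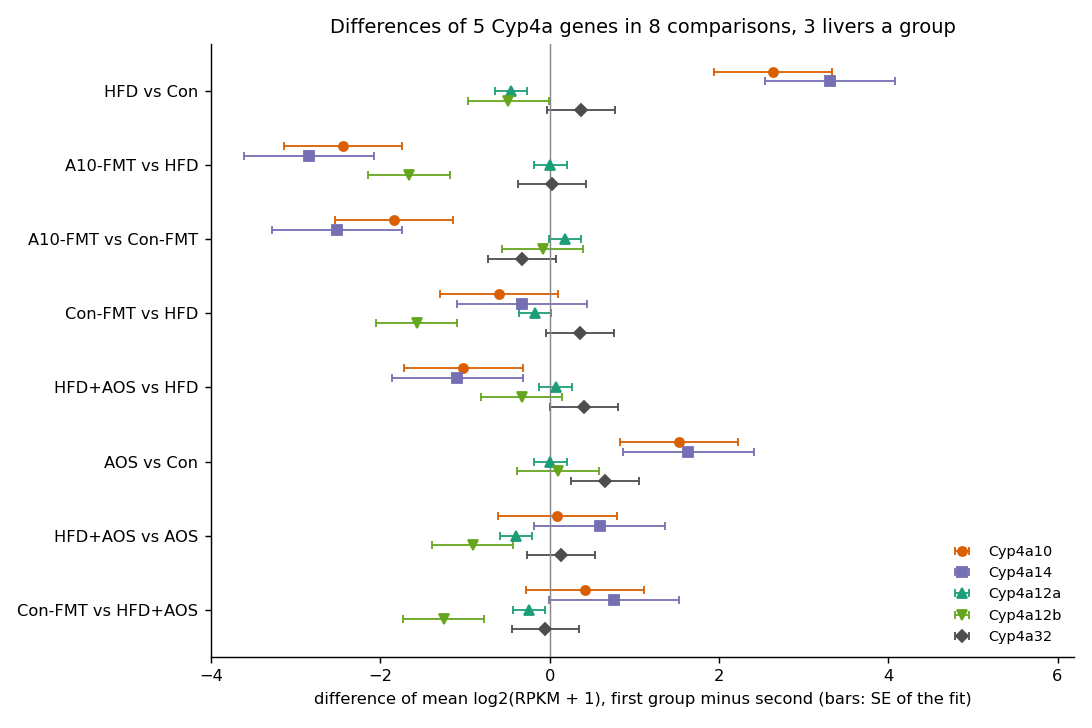
Differences in mean log2(RPKM + 1), first group minus second, for the 5 fitted Cyp4a genes (symbols) in 8 comparisons, with the SE of the fit as bars and 3 livers a group. Cyp4a10 and Cyp4a14 lay side by side, from 2.64 and 3.31 in HFD vs Con to -2.44 and -2.84 in A10-FMT vs HFD, while Cyp4a12b was lower in Con-FMT and A10-FMT than in HFD by 1.57 and 1.66.

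Cyp4a10 and Cyp4a14 followed each other from liver to liver. Over the 18 livers their log2(RPKM + 1) values had a Pearson r of 0.91, and 0.91 over the 16 livers without replicate 3 of Con and AOS. The points share library, strain and the 6 group means, and the value is a description. The genes are only 75.3% identical in coding sequence, and 0.1% of the 50-base coding stretches of Cyp4a10 matched Cyp4a14 with up to 2 mismatches. Their ratio was not constant. Cyp4a14 per Cyp4a10 was 0.155 to 0.207 in Con, 0.285 to 0.51 in AOS, 0.346 to 1.47 in HFD and 0.103 to 0.799 in A10-FMT. Cyp4a14 exceeded Cyp4a10 in HFD replicate 3 and in Con-FMT replicate 3 and in no other liver. Against its nearest relatives Cyp4a10 had an r of 0.28 (Cyp4a32) and 0.37 (Cyp4a31), although 81.0% and 77.1% of its 50-base coding stretches matched those genes with up to 2 mismatches.

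**Figure D3:**
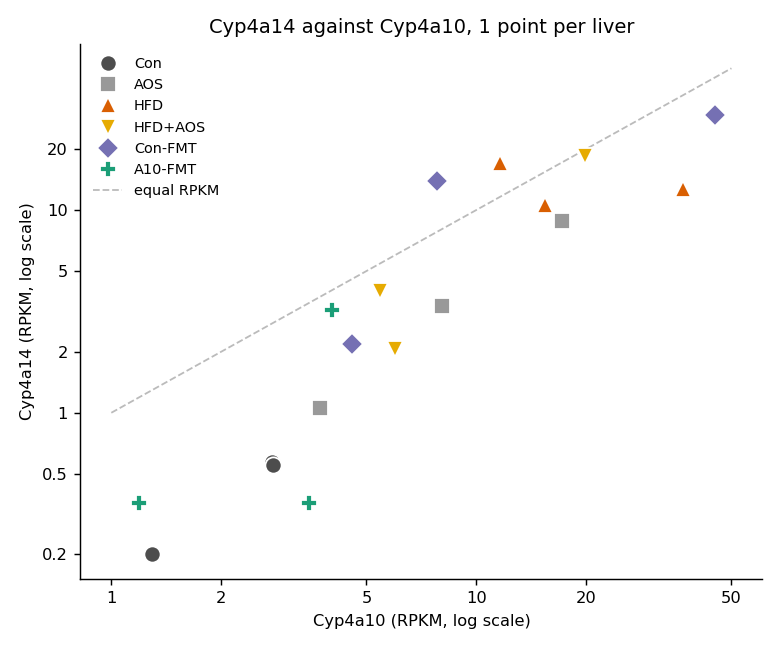
Cyp4a14 against Cyp4a10 RPKM on log axes, with 1 point per liver and the dashed line at equal RPKM. The 3 Con livers and 2 of the A10-FMT livers sit at the lower left with Cyp4a14 under 1 RPKM, Con-FMT replicate 2 at the upper right with 45.15 and 29.57 RPKM, and the remaining livers lie between.

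Cyp4a12b, the minor partner of Cyp4a12a, was lower in both transplant groups and in HFD+AOS than in Con and AOS. It was 9.59 to 15.34 RPKM in the 6 Con and AOS livers, 4.77 to 14.45 RPKM in HFD, 2.7 to 8.92 RPKM in HFD+AOS, and 0.66 to 5.54 RPKM in the 6 Con-FMT and A10-FMT livers. Every transplant liver was below every Con or AOS liver, as were 7.94% (Con-FMT vs Con), 12.2% (A10-FMT vs Con), 13.6% (Con-FMT vs AOS) and 19.4% (A10-FMT vs AOS) of all genes. Every HFD+AOS liver was below them too, as were 13.2% (against Con) and 17.1% (against AOS) of all genes. Cyp4a12a separated the same pairs, with 362.68 to 386.68 RPKM in Con, 374.81 to 381.16 RPKM in AOS, 235.06 to 328.4 RPKM in HFD+AOS, 207.62 to 269.17 RPKM in Con-FMT and 269.07 to 283.66 RPKM in A10-FMT. As a percentage of Cyp4a12a, Cyp4a12b was 2.68 to 3.2% in Con, 2.52 to 4.09% in AOS, 1.93 to 3.56% in HFD and 1.15 to 2.92% in HFD+AOS, against 0.318 to 2.06% in Con-FMT and 0.29 to 1.13% in A10-FMT. The ratio in A10-FMT lay below that of all livers outside the transplant groups. The pair had a Pearson r of 0.77 over 18 livers. Since 91.1% of their 50-base coding stretches matched each other with up to 2 mismatches, reads of the abundant gene could reach the rare one, and their part in the Cyp4a12b value was not tested.

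**Figure D4:**
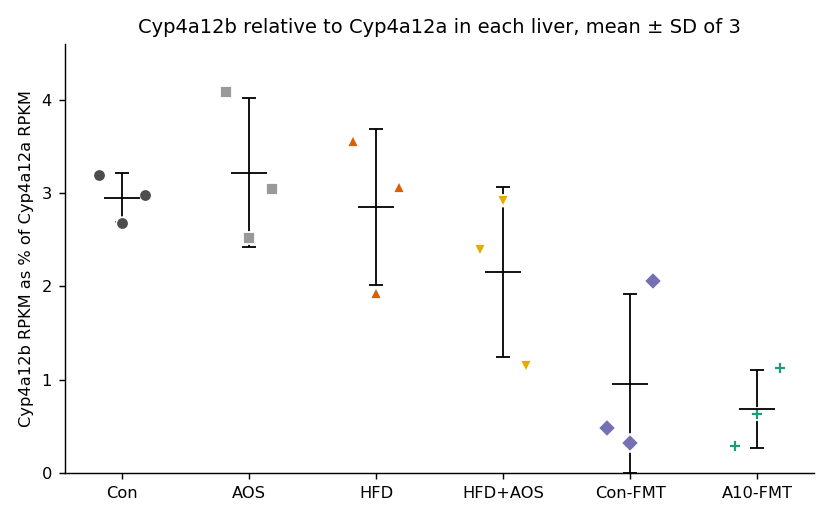
Cyp4a12b RPKM as a percentage of Cyp4a12a RPKM in each liver by group (points), with the mean and SD of 3 livers in black and the axis starting at 0. The A10-FMT livers (0.29 to 1.13%) lie below all livers of Con, AOS, HFD and HFD+AOS, and 2 of 3 Con-FMT livers lie with them.

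Cyp4a31 and Cyp4a32 carried little of the group pattern. Cyp4a31 was 0.83, 0.84 and 0.79 RPKM in AOS, above every Con, HFD+AOS and A10-FMT liver, but only 2 livers reached 1 RPKM, both HFD. Its Con-FMT values were 0.05, 0.19 and 0.99 RPKM, its HFD+AOS values 0.63, 0.37 and 0.21 RPKM and its A10-FMT values 0.17, 0.03 and 0.25 RPKM. Cyp4a32 overlapped in all 15 pairs of groups, with group means from 17.7 ± 6.52 RPKM (SD, n = 3) in Con to 31.1 ± 10.3 RPKM in HFD+AOS. By comparison, livers did not overlap in 7 of 15 pairs for Cyp4a10, 6 for Cyp4a14, 6 for Cyp4a12a, 7 for Cyp4a12b and 3 for Cyp4a31. Over all fitted genes 22.9% of the pairs did not overlap, with a median of 3 pairs a gene, and 23.1% of the genes had 6 or more such pairs. For Cyp4a10 and Cyp4a14 the count includes the 2 pairs that chose them.

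The remaining CYP4 hydroxylases gave no call. Of 14 further CYP4 genes in the table, 6 were fitted, and none was called in any comparison at an adjusted p under 0.05 (limma). Of all fitted genes, 0.00952% (Con-FMT vs HFD) to 8.75% (HFD+AOS vs HFD) were called, so few calls among 6 genes were to be looked for. Cyp4f14, a hydroxylase of leukotrienes and long-chain fatty acids, was 132 ± 31.7 RPKM in Con, 172 ± 3.33 in HFD and 161 ± 15.2 in A10-FMT (SD, n = 3). Cyp4v3, which acts on medium-chain fatty acids, was 208 ± 39.2 RPKM in Con, 245 ± 54.6 in HFD and 229 ± 18.7 in A10-FMT. Cyp4a29 was listed at 0 in every liver, and Cyp4a30b stayed at 0.10 to 0.56 RPKM.

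Por, the reductase that passes electrons to all microsomal P450 enzymes, was higher in A10-FMT than in HFD livers, where the inducible members were lower. It was 100.93, 151.61 and 63.41 RPKM in A10-FMT and 21.47, 51.02 and 51.01 RPKM in HFD, a rise of 1.35 (SE 0.30, adjusted p = 0.0134, limma), and it was higher in all A10-FMT than in all Con-FMT livers by 1.34 (SE 0.30, adjusted p = 0.0309). The first call was lost without A10-FMT replicate 1 or replicate 2 (adjusted p = 0.0501 and 0.0747) and the second without any of 5 of the 6 livers compared (adjusted p up to 0.164). The other 3 electron donors of the list, Cyb5a, Cyb5b and Cyb5r3, were not called in either comparison. Por was also higher in all HFD+AOS than in all HFD livers, at 62.47 to 90.13 RPKM. It was not called there, and 27.2% of all genes had livers that did not overlap in that comparison.

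The enzymes that follow omega-hydroxylation gave mixed changes. In HFD vs Con, 2 of 25 fitted genes rose and none fell, where 0.295% of all fitted genes were called higher. They were Slc27a2, an acyl-CoA synthetase of very long chains (0.61, SE 0.11, adjusted p = 0.0317, limma), and Crot, the peroxisomal carnitine octanoyltransferase (0.93, SE 0.18, adjusted p = 0.0352). Neither remained when Con replicate 1 or Con replicate 3 was left out, when HFD replicate 1 was, or under equal library medians. In A10-FMT vs HFD, 3 rose and 1 fell (2.62% and 3.98% of all fitted genes did, or 275 and 418 genes, which became 603 and 467 under equal library medians). Crot was 319.2, 324.78 and 251.12 RPKM in HFD and 116.14, 107.51 and 189.45 RPKM in A10-FMT, a fall of 1.15 on the log2 scale (SE 0.18, adjusted p = 0.00123, limma). Eci2, a peroxisomal enoyl-CoA isomerase, rose by 0.43 (SE 0.09, adjusted p = 0.0121), Adh7, an alcohol dehydrogenase, by 0.45 (SE 0.12, adjusted p = 0.0318) and Acaa1a, the peroxisomal thiolase, by 0.51 (SE 0.13, adjusted p = 0.0279). The fall of Crot held with any 1 HFD or A10-FMT liver left out. The count of 4 was 2 without A10-FMT replicate 1, 1 without A10-FMT replicate 2, 1 without HFD replicate 3, 2 without replicate 3 of Con and AOS and 0 with only the compared groups fitted. Aldh3a2, the fatty aldehyde dehydrogenase, was 53.4 ± 2.05 RPKM in HFD and 63.8 ± 14.6 in A10-FMT and was not called (adjusted p = 0.425, limma). Ehhadh, the bifunctional enzyme of peroxisomal beta-oxidation, was 69.1 ± 10.4 RPKM in HFD and 57.0 ± 10.2 in A10-FMT and was not called (adjusted p = 0.329, limma). In HFD+AOS vs HFD, 4 of 25 rose and 1 fell, where 8.75% of all fitted genes were called. Acaa1a (0.65) and Eci2 (0.41) rose and Crot fell (-0.68) there too. These calls held under 13, 9 and 6 of 13 alternatives.

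Most PPARα targets other than Cyp4a had a positive difference both in HFD vs Con, where Cyp4a10 and Cyp4a14 were higher, and in A10-FMT vs HFD, where they were lower. Of 40 listed targets 37 were fitted. In HFD vs Con, 36 of 37 had a positive difference, the median was 0.31 against 0.05 over all fitted genes, and 3 rose (0.295% of all fitted genes did). These were Fgf21, a fasting hormone (1.44, SE 0.25, adjusted p = 0.0283, limma), Angptl4, an inhibitor of lipoprotein lipase (0.90, SE 0.14, adjusted p = 0.0240), and Hadhb of mitochondrial beta-oxidation (0.56, SE 0.08, adjusted p = 0.0175). The count was 0 without Con replicate 1, 9 without Con replicate 2, 0 without Con replicate 3, 0 without replicate 3 of both Con and AOS and 0 with only the compared groups fitted. In A10-FMT vs HFD, 23 of 37 were positive with a median of 0.12 against -0.03, while 2 fell and 1 rose, shares close to the 3.98% and 2.62% of all fitted genes. Fgf21 was 5.64, 2.46 and 5.15 RPKM in HFD and 1.08, 1.15 and 1.37 RPKM in A10-FMT, a fall of 1.25 on the log2 scale (SE 0.25, adjusted p = 0.00809, limma). Pdk4, the kinase that shuts pyruvate dehydrogenase, was 2.18, 3.64 and 3.65 RPKM in HFD and 0.38, 0.27 and 1.43 RPKM in A10-FMT, a fall of 1.34 (SE 0.23, adjusted p = 0.00293). Acaa1a rose as given above. The count of 3 was 6 without A10-FMT replicate 3 and 0 with only the compared groups fitted. Fgf21 also fell in A10-FMT vs Con-FMT by 1.47 (SE 0.25, adjusted p = 0.00551, limma). In HFD+AOS vs HFD, 27 of 37 were positive with a median of 0.19 against -0.01, and 4 rose and 1 fell (8.75% of all fitted genes were called). Pdk4 was the 1 that fell there, with a difference of -1.13, and Fgf21 was not called. Vnn1, Acot1 and Acot3, further targets that PPARα activators raise in liver, were not called in HFD vs Con or A10-FMT vs HFD, with adjusted p from 0.311 to 0.953 (limma).

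**Figure D5:**
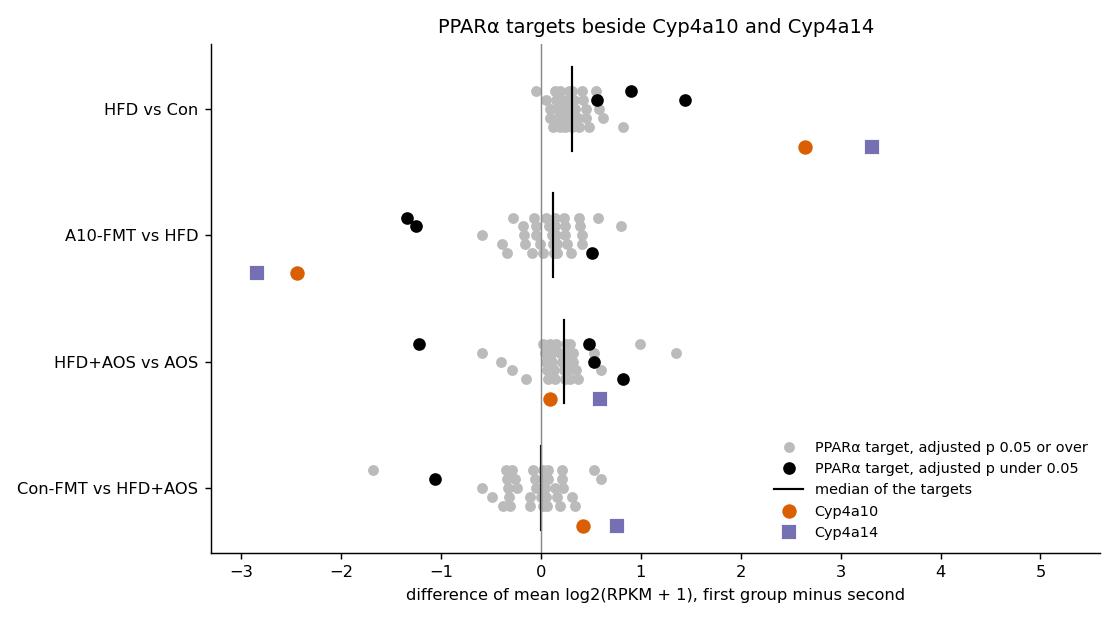
Differences in mean log2(RPKM + 1), first group minus second, of the 37 fitted PPARα targets (grey, black where the adjusted p was under 0.05) with their median (black line), and of Cyp4a10 (orange) and Cyp4a14 (purple) placed just under them, in 4 comparisons. In HFD vs Con 36 of 37 targets lie right of 0 with a median of 0.31. In A10-FMT vs HFD the median is 0.12 while Cyp4a10 and Cyp4a14 lie at -2.44 and -2.84.

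The receptor itself did not parallel the members. Ppara was 23.35, 21.33 and 17.19 RPKM in HFD and 31.5, 29.66 and 33.01 RPKM in A10-FMT, a rise of 0.59 (SE 0.14, adjusted p = 0.0223, limma) that was lost without A10-FMT replicate 1 or 2 or HFD replicate 2 or 3 (adjusted p up to 0.104). It also rose in HFD+AOS vs AOS by 0.75 (SE 0.14, adjusted p = 0.00578) and in HFD+AOS vs HFD by 0.87, a call that held under 13 of 13 alternatives. Ppara was not called in HFD vs Con (0.35, SE 0.14, adjusted p = 0.257). Of the 12 fitted genes of the receptor and its partners, 1 rose and 1 fell in A10-FMT vs HFD (2.62% and 3.98% of all fitted genes did). The second was the corepressor Ncor1 (-0.33, SE 0.09, adjusted p = 0.0375, limma), a call lost without any of 5 of the 6 livers. None of the 12 was called in HFD vs Con, where 0.381% of all fitted genes were. In HFD+AOS vs AOS, where Cyp4a10 and Cyp4a14 differed by 0.09 and 0.59, 32 of 37 targets were positive with a median of 0.23 against -0.03, and 3 rose and 1 fell (2.51% and 2.93% of all fitted genes did, or 264 and 308 genes, which became 427 and 340 under equal library medians). Cpt1a, the gate of mitochondrial fatty acid import, rose by 0.82 (SE 0.13, adjusted p = 0.00149, limma), as did Creb3l3 and Acaa1a, while Pdk4 fell by 1.22 (SE 0.23, adjusted p = 0.00578). The count of 4 was 2 without AOS replicate 2 or replicate 3, 1 without replicate 3 of Con and AOS, and 8 with equal medians. In Con-FMT vs HFD+AOS, where 1.99% of all fitted genes were called, 18 of 37 were positive and 1 fell, Txnip (-1.06, SE 0.20, adjusted p = 0.0133, limma, and 0.0529 without HFD+AOS replicate 3).

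Clock genes differed between the groups that are compared here. Dbp, an output gene of the circadian clock, was 0.36 to 3.41 RPKM in AOS, 0.58 to 0.68 in Con and 0.27 to 0.59 in HFD, 3.24 to 22.57 in Con-FMT, 88.9 to 111.84 in HFD+AOS and 49.17 to 126.9 in A10-FMT. Arntl, which peaks in the opposite phase, was 6.94 to 14.64 RPKM in Con, AOS, HFD and Con-FMT and 0.69 to 2.41 RPKM in HFD+AOS and A10-FMT. In A10-FMT vs HFD, 5 of 5 genes of the Arntl phase fell and 8 of 9 of the Dbp phase rose (3.98% and 2.62% of all fitted genes did). In HFD+AOS vs AOS the counts were 5 of 5 and 7 of 9 (2.93% and 2.51% of all fitted genes). In HFD vs Con none of the 14 was called, where only 0.381% of all fitted genes were. In A10-FMT vs Con-FMT 4 of 5 fell and 4 of 9 rose (1.68% of all fitted genes were called). In Con-FMT vs HFD+AOS 5 of 5 rose and 5 of 9 fell (1.99% were called). Within the high-Dbp groups Cyp4a10 was 5.46 to 19.89 RPKM in HFD+AOS and 1.19 to 4.02 RPKM in A10-FMT, and those livers did not overlap (6.60% of all genes lay wholly lower in A10-FMT). Cyp4a14 overlapped, at 2.07 to 18.46 and 0.36 to 3.21 RPKM. The hour at which the livers were taken was not given in the sources used here, and its part in the Cyp4a, Ppara, Pdk4, Por and Elovl3 differences was not tested.

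Sex-biased genes were examined because Cyp4a12a is male-biased. All 12 male-biased genes of the list were fitted and none was called in HFD vs Con (0.381% of all fitted genes were), where Cyp4a12a differed by -0.46. Elovl3, a male-biased fatty acid elongase, was 174.28 to 250.25 RPKM in HFD and 16.83 to 29.07 RPKM in A10-FMT, a fall of 3.14 on the log2 scale (SE 0.29, adjusted p = 1.54e-05, limma), while Cyp4a12a differed by 0.01. Elovl3 was the only 1 of the 12 called in A10-FMT vs HFD, where 3.98% of all fitted genes fell. The other 11 were not called, and 7 of the 12 had a positive difference, with a median of 0.15. Elovl3 was also low in HFD+AOS, at 25.24 to 45.27 RPKM. Only 3 of 12 female-biased genes were fitted, and Cyp3a44 was the 1 called in A10-FMT vs HFD. It was 0.32, 7.98 and 8.37 RPKM in HFD and at most 0.20 RPKM in A10-FMT, and the call (-2.04, SE 0.57, adjusted p = 0.0432, limma) was lost without HFD replicate 2, HFD replicate 3 or any A10-FMT liver. The HFD livers with Cyp3a44 at 7.98 and 8.37 RPKM were those with Cyp4a12a at 247.63 and 201.76 RPKM, and the liver with 0.32 RPKM had Cyp4a12a at 405.55 RPKM, a match chosen after these values were seen. The other fitted female-biased genes went the opposite way in HFD. Cyp2b9 was 14.43, 1.32 and 1.86 RPKM in replicates 1 to 3, and Cyp2b13 was 0.42, 0.12 and 0.0 RPKM. Outside HFD, Con-FMT replicate 2 had Cyp4a12a at 207.62 RPKM but Cyp3a44 at only 0.6 RPKM.

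The genes most like the members over the 18 livers were named by the highest Pearson r of log2(RPKM + 1) among all fitted genes. For Cyp4a14 they were Pja2 (0.88), Rab3gap1 (0.87), Cog7 (0.87), Snrnp200 (0.87) and Ipo8 (0.86), of which 4 stayed among the first 5 without replicate 3 of Con and AOS. For Cyp4a10 they were Cog7 (0.91), Actr8 (0.84), Fgf21 (0.83), 2610507B11Rik (0.83) and Snrnp200 (0.82), of which 3 stayed. Most of these differed little between groups compared with Cyp4a14. Pja2, for example, ranged only from a mean of 5.87 ± 0.222 RPKM in Con to 8.25 ± 0.467 RPKM in Con-FMT (SD, n = 3). Fgf21 was the 1 PPARα target among them, at 0.92 ± 0.122 RPKM in Con, 4.42 ± 1.71 in HFD and 1.2 ± 0.151 in A10-FMT. For Cyp4a12a the nearest were Mup-ps12 (0.83), Exo5 (0.77), Lrp10 (0.75), Cyp2f2 (0.74) and C2 (0.73), of which 4 stayed. These are the highest of 10507 values over the same livers and libraries, and they carry no test.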

How the data were processed

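Total RNA of 18 livers (3 in each of 6 groups, grouped by the treatment label) was sequenced on an Illumina HiSeq. The paper names SOAPaligner for the alignment to reference genes, with a setting that reports all hits of a multiply matching read. The gene values were deposited as RPKM. The submitters' processing notes name Bowtie 0.12.2 and mm10, and which aligner made the deposited values is not known. The annotation, strand handling and read number were not given in the sources used here. P-values measure only the spread between the libraries of a group, which may in part be technical. The smallest steps between RPKM values of 45 low genes, relative to the gene's median step, averaged 0.97 to 1.02 by library. Genes were kept only where values lay near whole multiples of 1 common step. That choice removes genes whose steps differ between libraries, so the ratios cannot show that depths were alike.

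RPKM was transformed as log2(RPKM + 1), the 10507 of 19057 genes reaching 1 RPKM in 3 or more libraries were kept, and limma 3.58.1 in R 4.3.3 was fitted to all 18 libraries with a mean per group, using lmFit and eBayes with trend. Tests were two-sided, and p-values were adjusted by Benjamini-Hochberg across every fitted gene, with a threshold of 0.05. The authors' own test was not used, since it needs read numbers. The fit was also run on simulated data with known changes in HFD+AOS. The simulated libraries were independent, which replicate 3 of Con and AOS may not be. Alternatives were equal library medians, a pseudocount of 0.1, no filter, only the compared groups, a replicate block, robust eBayes, replicate 3 of Con and AOS left out, and each library left out. Members and gene lists were chosen with earlier results of these data known. Members were therefore tested only in HFD+AOS vs AOS and Con-FMT vs HFD+AOS, whose livers are not known to have entered that choice. Named were the 6 members, list genes passing the threshold (at most 6 a list and comparison) or defining a list, and the 5 genes most correlated with Cyp4a14, Cyp4a10 and Cyp4a12a. Gene places, transcripts and coding sequences came from GENCODE on GRCm38.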

Additional observations from a re-analysis of the deposited data

Results flagged for a closer look

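For 9 genes of the lists HFD+AOS minus AOS differed from HFD minus Con, by the test of that difference over all fitted genes (limma, adjusted p), and 0.504% of all fitted genes did. They were 1 PPARα target and 8 clock genes, and the diet of the AOS group was not given. Angptl4, the PPARα target that rose in HFD vs Con by 0.90, differed by -0.29 in HFD+AOS vs AOS, a difference of -1.18 (SE 0.20, adjusted p = 0.00906, n = 3 a group). It was 17.31 to 25.04 RPKM in Con, 45.08 to 46.09 in AOS, 36.48 to 44.21 in HFD and 33.06 to 42.2 in HFD+AOS, so Con was the group that stood apart. Leaving out replicate 3 of Con and AOS ended this call, as the count of called targets then was 0 of 37. Dbp differed by 5.29 in HFD+AOS vs AOS and by -0.16 in HFD vs Con, a difference of 5.45 (SE 0.72, adjusted p = 0.00137). Arntl differed by -2.52 and by 0.17, a difference of -2.70 (SE 0.31, adjusted p = 0.000698). Of the other clock genes, Npas2 (-1.81), Nfil3 (-1.68) and Clock (-1.16) went with Arntl, and Ciart (3.26), Per3 (2.48) and Tef (2.12) with Dbp, with adjusted p from 5.11e-05 to 0.0121. Clock and Tef, like Angptl4, lost the call without replicate 3 of Con and AOS. For Cyp4a10 and Cyp4a14 the corresponding differences were -2.54 (SE 0.98) and -2.73 (SE 1.09), with no test because their choice used the HFD and Con livers.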

How the results depend on the processing

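Of 615 member differences recomputed under an alternative, 599 moved by less than the gene's residual SD in the fit, a tolerance wide for Cyp4a10 and Cyp4a14, or, where tested, kept their direction and side of the threshold, 7 moved further and 9 tested values changed sign, and no member passed the threshold under any alternative in the tested comparisons. The 7 were Cyp4a14 with a pseudocount of 0.1 in HFD vs Con (4.71) and in the difference between HFD+AOS vs AOS and HFD vs Con (-3.98), and 5 differences of Cyp4a12a without HFD replicate 1. All 9 came from leaving out 1 liver, with values of -0.05 to 0.59 before. In the comparisons without a test 28 more values, over differences of -0.60 to 0.37, changed sign, 27 of them with 1 liver left out, such as Cyp4a14 in Con-FMT vs HFD (0.59 without Con-FMT replicate 1) and Cyp4a32 in HFD vs Con (-0.07 without HFD replicate 2). In HFD+AOS vs AOS, Cyp4a10 was -0.45 without HFD+AOS replicate 3 and -0.39 without AOS replicate 2 (0.59 at most), Cyp4a14 was -0.18 without HFD+AOS replicate 3 (1.15 at most), and Cyp4a32 was -0.07 without HFD+AOS replicate 3 or AOS replicate 1 (0.42 at most). In Con-FMT vs HFD+AOS, Cyp4a10 was -0.49 without Con-FMT replicate 2 (1.04 at most), and Cyp4a32 ranged from -0.33 upward and was 0.14 without Con-FMT replicate 3, 0.02 without HFD+AOS replicate 2 and 0.15 without HFD+AOS replicate 3.

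Of 1549 values of called list genes, 1283 kept the call and 266 lost it without a change of sign. With only the compared groups fitted, 14 of 26 called list genes lost their calls in A10-FMT vs HFD, among them Crot, Fgf21 and Pdk4 (adjusted p = 0.0662, 0.0635 and 0.0738), Por, Ppara, Ncor1, Eci2, Adh7, Acaa1a and Cyp3a44, as did 11 of 13 in A10-FMT vs Con-FMT, 7 of 25 in HFD+AOS vs HFD, 5 of 5 in HFD vs Con, 3 of 12 in Con-FMT vs HFD+AOS and 1 of 23 in HFD+AOS vs AOS.

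Counts of called genes depended far more on the settings, and the cause was not tested. With replicate 3 of Con and AOS left out the counts were 0 in HFD vs Con (40 with all libraries), 395 in A10-FMT vs HFD (693), 161 in HFD+AOS vs AOS (572), 74 in Con-FMT vs HFD+AOS (209), 496 in HFD+AOS vs HFD (919), 0 in AOS vs Con (14), 82 in A10-FMT vs Con-FMT (177) and 15 for the difference between HFD+AOS vs AOS and HFD vs Con (53). With only the compared groups fitted they were 2, 78, 110 (Con-FMT vs HFD+AOS), 435 (HFD+AOS vs HFD), 41 (AOS vs Con), 4 (A10-FMT vs Con-FMT) and 137 (that last difference), and 2 in Con-FMT vs HFD (1). Without the filter they were 26 in HFD vs Con, 129 in Con-FMT vs HFD+AOS, 2 in Con-FMT vs HFD and 100 in A10-FMT vs Con-FMT. A pseudocount of 0.1 gave 2 in Con-FMT vs HFD. Equal medians gave 1070 in A10-FMT vs HFD and 391 in Con-FMT vs HFD+AOS, and turned the called genes of A10-FMT vs HFD from 39.7% to 56.4% higher, those of HFD+AOS vs AOS from 46.2% to 55.7%, those of HFD+AOS vs HFD from 47.7% to 51.2%, those of HFD vs Con from 77.5% to 51.1%, those of AOS vs Con from 71.4% to 50%, those of A10-FMT vs Con-FMT from 27.1% to 44.4% and those of the difference between HFD+AOS vs AOS and HFD vs Con from 28.3% to 47.7%. Leaving out 1 library at a time gave 0 to 178 in HFD vs Con, 271 to 1218 in A10-FMT vs HFD, 240 to 459 in HFD+AOS vs AOS, 41 to 258 in Con-FMT vs HFD+AOS, 1 to 13 in Con-FMT vs HFD, 320 to 1282 in HFD+AOS vs HFD, 0 to 132 in AOS vs Con, 51 to 564 in A10-FMT vs Con-FMT and 29 to 186 for the difference between HFD+AOS vs AOS and HFD vs Con.

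The samples share replicate numbers only. Deviations of same-numbered livers correlated at -0.177 to 0.225, over 0.1 for every pair in 0 of 8 comparisons, so no pairing was used. With the replicate block the counts were 5 in HFD vs Con, 704 in A10-FMT vs HFD, 544 in HFD+AOS vs AOS, 236 in Con-FMT vs HFD+AOS and 2 in Con-FMT vs HFD, and no tested member was called. RPKM gave no absolute depth, and with 3 livers a group the intervals of the tested differences, -1.38 to 1.57 for Cyp4a10 in HFD+AOS vs AOS, set what could be detected.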
